A study of Mus musculus with 6 samples.

Results

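The E47 knockout was compared with wild type through the sites where E2A was found on chromatin of mouse neural stem cells. Sites were chosen from the deposited peak lists by overlap alone. Peaks of 3 wild-type lists (wt replicates 1, 2 and 3) that shared at least 1 bp were merged, and a merged region held by at least 2 of the 3 lists was kept as a wt consensus region. A consensus region with no overlapping peak in the E47 knockout list (E47KO) is called lost, one with such a peak is called kept, and an E47KO peak that touched no peak of any wt list is called E47KO-only. Of 12322 consensus regions, 801 were lost (6.50%, 95% Wilson interval 6.08 to 6.95%) and 11521 were kept. Of 22176 E47KO peaks, 3242 were E47KO-only (14.6%, 14.2 to 15.1%). These 3 kinds of site come to 15564 in all. The intervals cover counting error only.

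The series holds 6 samples, all from C57BL/6J mice, and 4 of them are used here: 3 of wild-type genotype and 1 labelled E47 KO. Embryonic neural stem cells were taken at E12.5 and held in a proliferating state with 20 ng/ml each of recombinant human FGF-2 and EGF, with no further treatment. Cells of each genotype were fixed with the long crosslinker EGS (1.5 mM, 20 min) and then with 1% formaldehyde (10 min), and chromatin was precipitated with 1.5 µg of a rabbit antibody against E2A (sc-349X). The labels do not say whether that antibody binds E12 and E47 alike, how the knockout allele was made, whether the cells of a library came from 1 or several embryos, or whether the wt libraries came from separate embryos or cultures. The spread between the wt lists may therefore be technical in part. With 1 knockout library there is no replicate of the E47KO list, no test between genotypes was made, and the number of reads behind each list is unknown.

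The gene Tcf3 encodes E2A, a transcription factor of the basic helix-loop-helix (bHLH) class. Use of either of a pair of alternative bHLH exons gives E12 or E47, which differ in the DNA-binding domain and are otherwise alike. E proteins bind the E-box, the hexamer CANNTG, as homodimers or with tissue-specific bHLH partners such as the neurogenins, and the Id proteins, which lack a DNA-binding region, hold them off DNA. In a cell that lacks E47, an antibody that recognises E12 can still recover that form on chromatin. Peaks give positions and not expression, so neither the genotype label nor the identity of the cells could be checked from these lists. At Tcf3 itself, wt replicate 3 had a promoter peak of 1241 bp and the E47KO list one of 997 bp, and wt replicates 1 and 2 had none annotated to the gene.

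Promoter sequences of 5 genes are given first, since the sites described below lie over them. Each is the stretch from 250 bp before to 50 bp after the transcription start site in RefSeq (GRCm38.p6, a later build than the mm9 coordinates of the peaks), on the gene's strand, with every CANNTG E-box in capitals. The first 3 belong to lost promoter sites: Klhl17 (chr4:156234808-156235107, minus strand), the strongest lost region of all 3 wt lists that lay over a start site; Chrd (chr16:20732877-20733176, plus strand), a listed BMP antagonist left with no E47KO peak nearby; and Lrp1 (chr10:127621099-127621398, minus strand), a receptor gene that lost each of its consensus regions. Ninj1 (chr13:49187279-49187578, plus strand) and Zfp787 (chr7:6155916-6156215, minus strand) lie under the widest E47KO-only peaks.
Klhl17: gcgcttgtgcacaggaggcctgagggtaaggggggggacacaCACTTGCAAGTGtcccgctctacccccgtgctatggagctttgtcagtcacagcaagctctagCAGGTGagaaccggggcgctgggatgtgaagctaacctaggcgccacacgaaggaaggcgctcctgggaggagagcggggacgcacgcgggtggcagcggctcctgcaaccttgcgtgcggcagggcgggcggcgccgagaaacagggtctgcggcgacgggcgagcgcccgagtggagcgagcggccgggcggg
Chrd: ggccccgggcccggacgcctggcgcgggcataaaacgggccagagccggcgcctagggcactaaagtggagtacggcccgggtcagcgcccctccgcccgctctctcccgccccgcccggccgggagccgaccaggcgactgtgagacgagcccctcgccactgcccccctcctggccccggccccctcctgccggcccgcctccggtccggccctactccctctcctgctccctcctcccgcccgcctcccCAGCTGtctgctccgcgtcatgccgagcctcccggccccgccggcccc
Lrp1: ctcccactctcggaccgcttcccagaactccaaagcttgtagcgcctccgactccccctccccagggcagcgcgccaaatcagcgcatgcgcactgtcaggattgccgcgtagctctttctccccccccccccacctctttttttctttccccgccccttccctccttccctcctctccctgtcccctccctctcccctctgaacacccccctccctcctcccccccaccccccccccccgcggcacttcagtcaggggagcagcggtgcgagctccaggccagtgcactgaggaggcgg
Ninj1: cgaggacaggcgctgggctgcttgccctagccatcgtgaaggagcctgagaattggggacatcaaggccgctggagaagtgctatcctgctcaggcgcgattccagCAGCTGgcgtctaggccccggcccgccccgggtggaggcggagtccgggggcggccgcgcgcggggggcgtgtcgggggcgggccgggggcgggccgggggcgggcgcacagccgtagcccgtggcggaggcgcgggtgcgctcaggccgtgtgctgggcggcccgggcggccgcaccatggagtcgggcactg
Zfp787: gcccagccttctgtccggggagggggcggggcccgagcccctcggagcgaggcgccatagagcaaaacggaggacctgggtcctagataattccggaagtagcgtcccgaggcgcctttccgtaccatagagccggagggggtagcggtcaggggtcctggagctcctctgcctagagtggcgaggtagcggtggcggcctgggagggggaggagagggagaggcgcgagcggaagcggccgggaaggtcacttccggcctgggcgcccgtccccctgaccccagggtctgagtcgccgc

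The Klhl17 window held 3 E-boxes, of which 1 reads CAGGTG. The Chrd and Ninj1 windows each held 1, and it was CAGCTG in both. The Lrp1 and Zfp787 windows held none. A lost site and an E47KO-only site thus each occurred with and without an E-box in this window. The start site of RefSeq may differ from the one the authors' annotation used, and a match to these letters is a description, not a binding site.

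Most lost regions were ones that the wt lists themselves did not all hold. Of the 801, 338 (42.2%) were in wt replicates 1 and 3 and not 2, 375 (46.8%) in wt replicates 2 and 3 and not 1, 21 (2.62%) in wt replicates 1 and 2 and not 3, and 67 (8.36%, 6.64 to 10.5%) in all 3. Kept regions were in all 3 lists at 36.1% (35.2 to 37.0%). Read the other way, 67 of the 4228 regions in all 3 wt lists were lost (1.58%, 1.25 to 2.01%), against 734 of the 8094 in exactly 2 (9.07%, 8.46 to 9.71%). The loss was 26.8% (24.4 to 29.3%) for the 1263 regions that only wt replicate 2 lacked, 5.53% (5.01 to 6.10%) for the 6784 that only wt replicate 1 lacked, and 44.7% (31.4 to 58.8%) for the 47 that only wt replicate 3 lacked. The number of lost regions therefore depends on each wt library. With only the other 2 lists and a region required in both, it was 443 when wt replicate 1 was left out, 405 when wt replicate 2 was and 89 when wt replicate 3 was.

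To set the E47KO list beside a wt list that had no part in choosing the regions, each pair of wt lists defined a set of shared regions, and these were sought in the remaining wt list and in E47KO. Wt replicate 3 is the wt list nearest to E47KO in length (24194 against 22176 peaks) and in median peak width (549 against 550 bp). Of the 4263 regions of wt replicates 1 and 2, 47 had no peak in wt replicate 3 (1.10%, 0.830 to 1.46%) and 89 had none in E47KO (2.09%, 1.70 to 2.56%). Of these, 21 were missing from both lists, 68 from E47KO alone and 26 from wt replicate 3 alone. The E47KO share was thus the higher of the pair, by 0.985 percentage points (0.456 to 1.53, counting error only, with the shares treated as independent). With the shorter wt lists held out the order was the opposite. Of 5491 regions of wt replicates 1 and 3, 1263 were missing from wt replicate 2 (23.0%) and 405 from E47KO (7.38%), and of 11013 regions of wt replicates 2 and 3, 6784 were missing from wt replicate 1 (61.6%) and 443 from E47KO (4.02%). Those lists hold 12772 and 6814 peaks, so list length moves with this comparison. Wt replicate 3 was also cut to the E47KO length by keeping its widest peaks. It then lacked 1.38% of the regions of wt replicates 1 and 2, against 2.09% in E47KO. That difference was 0.704 percentage points (0.149 to 1.27). The part of list length beside the 2 shorter lists was not tested.

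**Figure D1:**
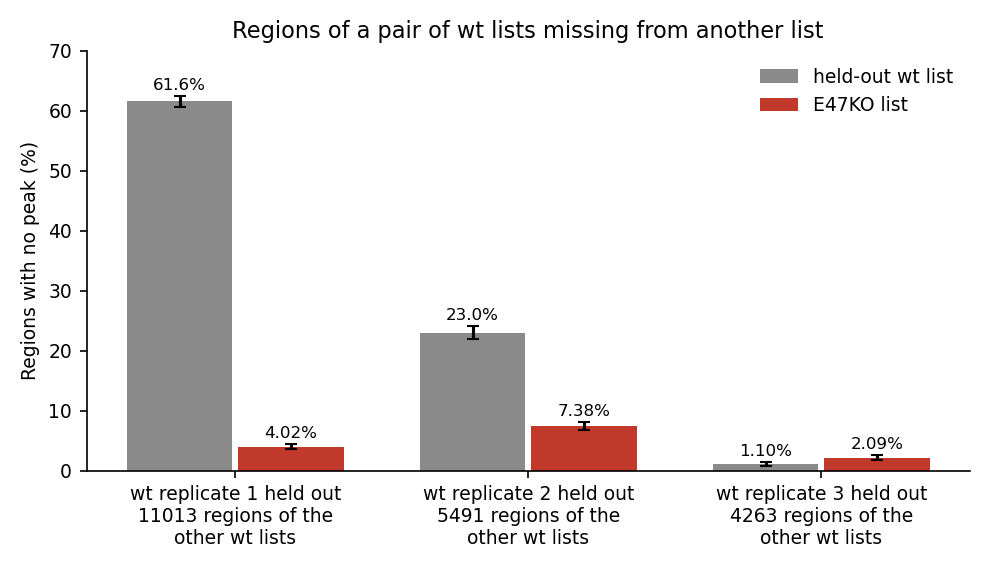
Bars give the percentage of regions shared by 2 wt lists that had no peak in the remaining wt list (grey) and in E47KO (red), with 95% Wilson intervals that cover counting error only. E47KO missed more regions than the held-out list only beside wt replicate 3, at 2.09% against 1.10%.

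Regions absent from E47KO were mostly also absent from the held-out wt list where that was wt replicate 1 or 2, and mostly not where it was wt replicate 3. The 338 regions of wt replicates 1 and 3 that both wt replicate 2 and E47KO lacked make up 83.5% of those missing from E47KO and 26.8% of those missing from wt replicate 2. For wt replicates 2 and 3, the 375 missing from both make up 84.7% of those missing from E47KO and 5.53% of those missing from wt replicate 1. For wt replicates 1 and 2, the 21 missing from both make up 23.6% of those missing from E47KO and 44.7% of those missing from wt replicate 3.

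Pooled over wt support, lost regions were weaker than kept ones in wt replicate 1, the only list deposited with scores. There, 426 lost regions had a median −log10 q of 10.4 (quartiles 7.63 and 15.5) and a median fold enrichment of 6.68, and 5112 kept regions had 15.6 (9.46 and 30.8) and 8.04. Within the regions of wt replicates 1 and 3 alone, which hold 338 of those 426, lost and kept were alike, with medians of 10.4 and 10.6 for −log10 q and 6.65 and 6.71 for fold. In all 3 lists the medians were 9.64 and 17.8 for −log10 q and 6.76 and 8.54 for fold. The q is the authors' false discovery measure for a peak, and the fold is the ratio of ChIP signal to the peak caller's background. Among the regions of wt replicates 1 and 2, split into 5 equal bins by −log10 q, the share missing from E47KO ran from 4.57% (3.36 to 6.19%) in the lowest bin to 0.821% (0.398 to 1.68%) in the highest. The share missing from wt replicate 3 ran from 2.58% (1.71 to 3.87%) to 0.586% (0.251 to 1.36%) over the same bins. E47KO lay above wt replicate 3 in each of the 5 bins, and their intervals overlapped in each. Regions of wt replicates 1 and 3 fell with strength in the same way, from 12.1% to 2.46% for E47KO and from 36.4% to 6.56% for wt replicate 2.

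**Figure D2:**
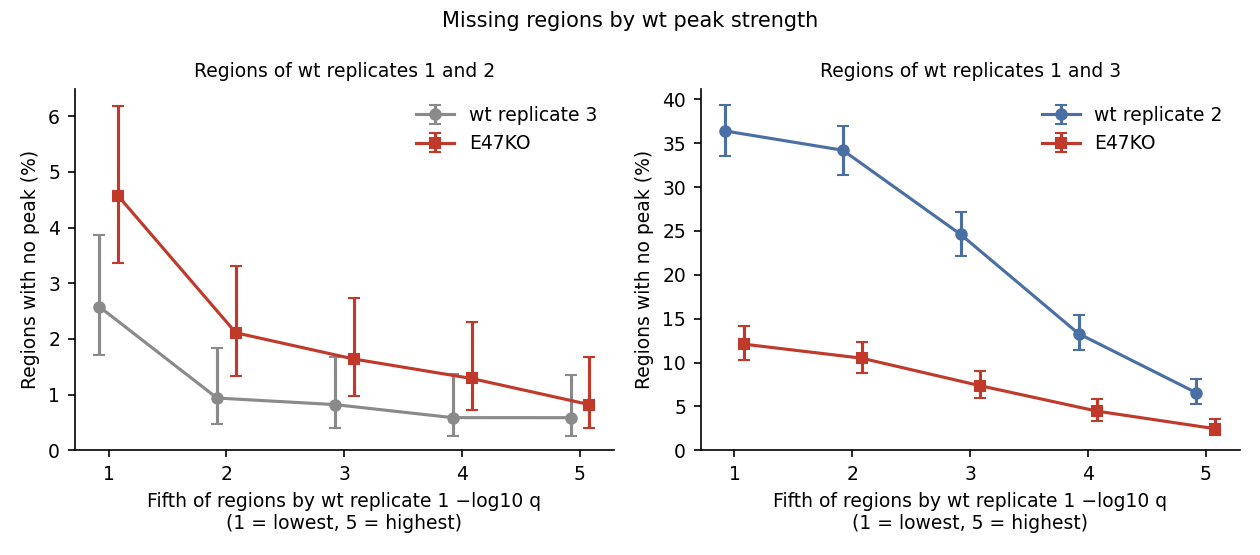
Points give the percentage of regions with no peak, with 95% Wilson intervals, in 5 equal bins of regions ordered by the −log10 q of wt replicate 1 (1 is the lowest). Left, regions of wt replicates 1 and 2 looked up in wt replicate 3 and E47KO, and right, regions of wt replicates 1 and 3 looked up in wt replicate 2 and E47KO; each series falls from the lowest bin to the highest.

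Width, which every list gives, showed the same order. Across consensus regions with a wt replicate 3 peak, split into 5 equal bins by its width, 17.6% (16.2 to 19.2%) were lost in the narrowest bin and 1.26% (0.891 to 1.79%) in the widest. The wt replicate 3 peak had a median width of 439 bp (quartiles 330 and 619) at lost regions and 711 bp (523 and 994) at kept ones. At promoters these medians were 645 and 909 bp, and elsewhere 398 and 672 bp. Lost regions were thus the narrower set both at promoters and away from them. At the 4161 regions in all 4 lists, the E47KO peak was 0.971 times as wide as the wt replicate 3 peak in the median (quartiles 0.841 and 1.11), and wider in 44.0% of them.

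The 15 lost regions of all 3 wt lists with the highest −log10 q were a mixed set: 4 lay at promoters, 5 in introns and 6 between genes. The highest score, −log10 q 70.6 with a fold of 23.1, belonged to an intronic region of Dscaml1, a homophilic adhesion molecule of neurons (chromosome 9, 45295365 to 45295892). Its peak was 528, 213 and 463 bp wide in wt replicates 1, 2 and 3, and the nearest E47KO peak lay 73301 bp away. At the promoter of Nrxn2, which encodes a presynaptic adhesion protein (chromosome 19, 6497216 to 6497883), the widths were 593, 273 and 306 bp and −log10 q was 59.9. The nearest E47KO peak to that region lay 6144 bp away. The wt replicate 2 peak was the narrowest at both sites.

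Several of the 15 were annotated to genes for regulators of transcription. A region annotated to Npas1, a bHLH-PAS transcription factor (chromosome 7, 17084921 to 17085883), lay 22856 bp upstream of its start site. It was labelled intronic, and that label need not refer to Npas1 itself. Its peaks were 758, 459 and 899 bp wide in wt replicates 1, 2 and 3, with no E47KO peak within 98070 bp. The Lmo4 promoter (chromosome 3, 143864689 to 143866070) had peaks of 605, 723 and 1093 bp. Lmo4 is a LIM-only cofactor that lacks a DNA-binding domain of its own. The next E47KO peak lay 2213 bp from that region, so the gene was not without E47KO binding nearby. A distal region annotated to Etv1, an ETS factor, lay 517535 bp from its start site, and one annotated to Hopx, an atypical homeodomain protein, 41909 bp from it.

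Signalling, cytoskeletal and other genes made up the rest. The start site of Klhl17, a kelch protein that binds actin (chromosome 4, 155608283 to 155609763), was covered in the 3 wt lists by peaks of 943, 300 and 997 bp, with the nearest E47KO peak 5241 bp away. The Map4k4 promoter, of a kinase gene (chromosome 1, 39957176 to 39957813), had peaks of 415, 228 and 561 bp and lay 17517 bp from an E47KO peak. The remaining regions were annotated to Parvb (a focal adhesion protein), Psmd14 (a proteasome deubiquitinase), Arhgap5 (a GTPase-activating protein), Frmd4a, Chst11 (a chondroitin sulfotransferase), Mir674 and Gm9159. Their −log10 q ran from 22.7 at Chst11 to 48.8 at Mir674, and the gap to the nearest E47KO peak from 1871 bp at Chst11 to 116623 bp at Psmd14. At Psmd14 the peaks of wt replicates 1 and 2 did not overlap and were joined through that of wt replicate 3. A region held by all 3 lists thus need not have a base that all 3 share.

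**Figure D3:**
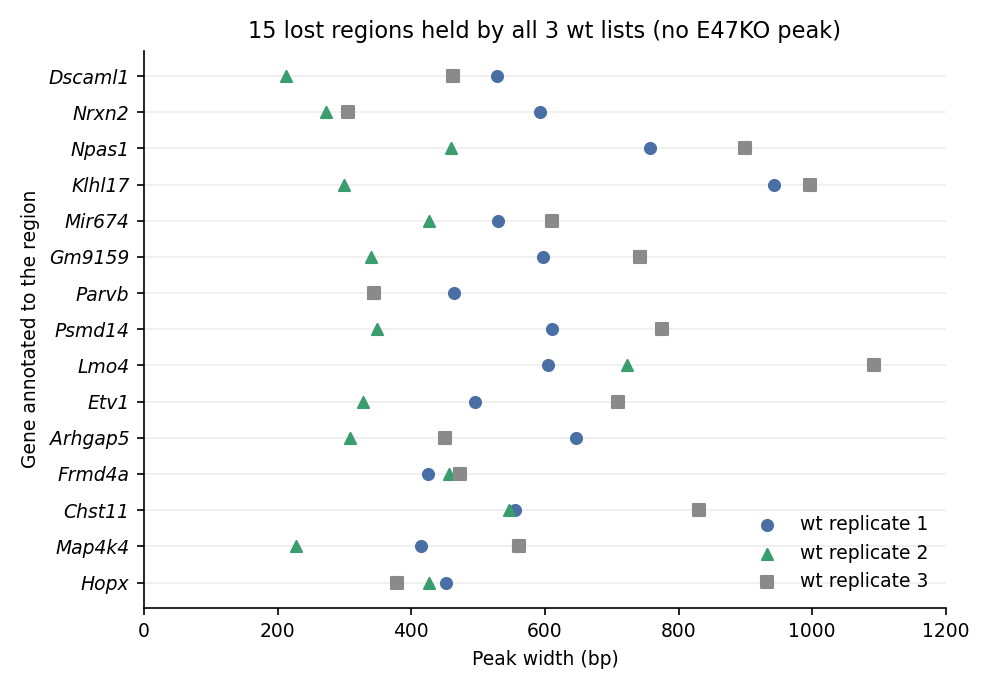
Each row is one of the 15 lost regions held by all 3 wt lists with the highest wt replicate 1 −log10 q, strongest at the top, and the points give the width in bp of its peak in each wt list. No E47KO peak overlaps any of them; the widest is the wt replicate 3 peak at Lmo4, 1093 bp.

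Among regions of all 3 wt lists, kept ones reached far higher scores. The 5 strongest kept regions of all 3 wt lists were annotated to Gng13, Pabpc6, Ube2r2, Brd7 and Jmjd1c, with −log10 q from 439 to 534. At Gng13 the peak was 970, 697 and 2351 bp wide in wt replicates 1, 2 and 3 and 2051 bp in E47KO. At the Ube2r2 promoter it was 861, 985 and 1673 bp in the wt lists and 676 bp in E47KO, the narrowest of the 4. No lost region of all 3 wt lists came above 70.6. There were 4161 kept and 67 lost regions of all 3 lists, so their highest scores are not like for like. Among regions of wt replicates 1 and 3 alone, the highest −log10 q was 377 for 338 lost and 366 for 925 kept regions.

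The highest scores of any lost region were at sites that wt replicate 2 lacked as well; these were named after their values were seen. The promoter of Bcl2l2, an anti-apoptotic gene (chromosome 14, 55501921 to 55502638), had −log10 q 377 and fold 67.1 in wt replicate 1 and a 438 bp peak in wt replicate 3, and no peak in wt replicate 2 or E47KO. The Prrt4 promoter had −log10 q 229.7, a distal site annotated to Gm14393 193, the promoter of Ubqln2 (a ubiquitin receptor of the proteasome) 185 and an intron of Gcnt2 (a glycosyltransferase gene) 147. Each was likewise in wt replicates 1 and 3 alone. Of the 244 regions of wt replicates 1 and 3 with −log10 q of 100 or more, 17 were missing from wt replicate 2 and 7 from E47KO, and all 7 were among the 17. At 50 or more, of 729 regions 44 were missing from wt replicate 2, 18 from E47KO and 14 from both.

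At the level of genes, a peak was counted for the gene annotated to it, within 10 kb of the annotated start, and a gene can have several starts. Of 3783 genes with such a consensus region, 3592 also had such an E47KO peak and 191 had none (5.05%). Of the 191, 181 had a lost region within 10 kb. The others had only kept regions there, whose E47KO peak was not annotated to the gene within 10 kb. For the genes chosen from wt replicates 1 and 2 alone, 24 of 1212 had none in E47KO (1.98%, 1.33 to 2.93%) and 28 had none in wt replicate 3 (2.31%, 1.60 to 3.32%), so the E47KO count was not the higher one at the level of genes. The count of 191 became 98 when wt replicate 1 was left out, 102 when wt replicate 2 was and 24 when wt replicate 3 was. Of the 322 genes with a lost region within 10 kb, 181 had no E47KO peak within 10 kb and 141 had one. That peak need not lie near the same annotated start as the lost region. The 24 genes with such a region in all 3 wt lists included 9 with no E47KO peak annotated to them within 10 kb: Ddx3x, Evi5, Gm11426, Gm11595, Gm9159, Map4k4, Plpp7, Sh2d3c and Slc1a1. An E47KO peak annotated to another gene lay 4994 bp from the Sh2d3c region, 7369 bp from that of Gm11595 and 7305 bp from that of Gm9159. Ddx3x, an RNA helicase gene, had promoter peaks of 339, 627 and 1575 bp in wt replicates 1, 2 and 3 and none in E47KO within 62417 bp.

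A few genes held more than 1 lost region. Nrxn2 lost 3 of its 4 consensus regions, namely at 2 promoters and in a 3′ UTR. Arhgap5 lost 3 of 7, Auts2 3 of 16, Celf2 2 of 9 and Chrm3, a muscarinic receptor gene, 2 of 4. Each still had E47KO peaks annotated to it: 6 at Nrxn2, 8 at Arhgap5, 21 at Auts2, 12 at Celf2 and 2 at Chrm3. Of the 6369 genes with a consensus region at any distance, 299 lost each one annotated to them (4.69%), and 8 of these had at least 2. Among these were Crtac1, Dok5, Lrp1, Pard6b and Rasd2, with 2 of 2 lost each. Dok5 and Pard6b each still had 2 E47KO peaks annotated to them, and Crtac1, Lrp1 and Rasd2 had 0. The Lrp1 promoter (chromosome 10, 127057878 to 127059224) had a 399 bp peak in wt replicate 1 and a 1347 bp peak in wt replicate 3 and none in wt replicate 2 or E47KO. Lrp1 encodes an endocytic receptor. None of the 10 regions of these 5 genes was in all 3 wt lists.

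E47KO-only peaks were narrow, and as narrow in the median as the peaks that only wt replicate 3 held. Their median width was 354 bp (quartiles 278 and 491), against 820 bp (595 and 1144) for the 4153 E47KO peaks that touched all 3 wt lists. The 4906 peaks of wt replicate 3 found in none of the other 3 lists had a median width of 354 bp as well (278 and 494), and they were the larger share of their list (20.3%, 19.8 to 20.8%, against 14.6%). Outside wt replicates 1 and 2, which neither list helped to make, lay 10208 E47KO peaks (46.0%, 45.4 to 46.7%) and 11896 wt replicate 3 peaks (49.2%, 48.5 to 49.8%). Without wt replicate 3 the E47KO-only count is thus 10208 in place of 3242. When wt replicate 3 was shortened to the E47KO length by keeping its widest peaks, those 2 shares were 46.0% for E47KO and 45.5% for wt replicate 3, a difference of 0.501 percentage points with an interval that spans 0 (-0.427 to 1.43). That cut removes narrow peaks, and the peaks of wt replicate 3 outside the other wt lists were narrow (median 422 bp).

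**Figure D4:**
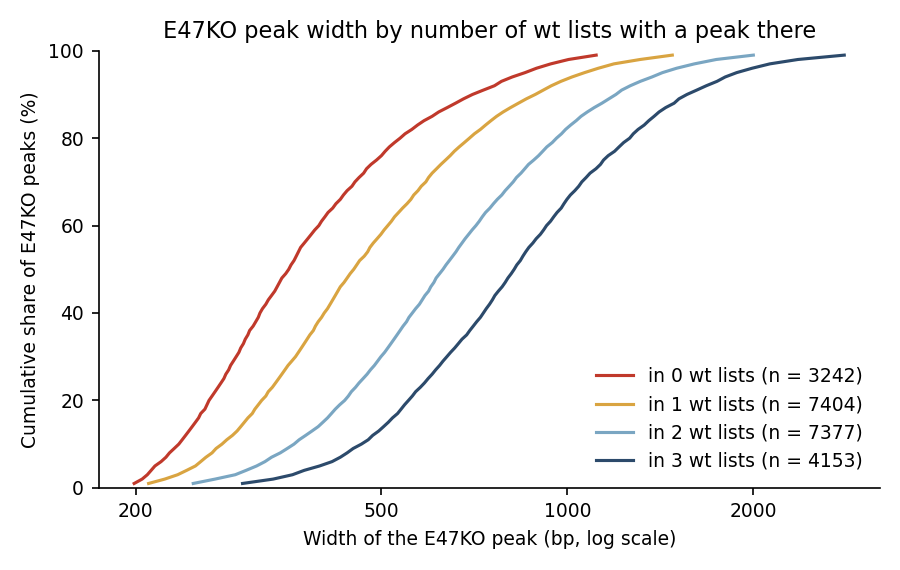
Lines give the cumulative percentage of E47KO peaks up to a given width (bp, log scale), by the number of wt lists with a peak there. Median width was 354 bp for peaks in no wt list, 451 bp in 1 list, 629 bp in 2 lists and 820 bp in 3 lists.

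The widest E47KO-only peaks lay mostly over start sites. Of the 10 widest, 8 were at promoters: Ninj1, Zfp787, Mdga1, Hnrnpll, Myc, Tst, Stc1 and Olig1. Wt replicate 3 peaks of kept regions were also wider at promoters than elsewhere, at medians of 909 and 672 bp. A pick of the widest peaks was not made from a wt list, so 8 of 10 has no wt counterpart. The peak over the start of Ninj1, whose product mediates plasma membrane rupture, was 2185 bp wide (chromosome 13, 49282174 to 49284358), and the nearest wt peak, of wt replicate 3, was 7077 bp away. The one at Zfp787, a zinc finger gene, was 1859 bp wide (chromosome 7, 6106427 to 6108285), and the one at Mdga1, an adhesion protein of developing neurons, 1673 bp (chromosome 17, 30024714 to 30026386). At Hnrnpll, which encodes a splicing regulator, a 1590 bp peak had no wt peak within 82538 bp. These widths are those of peaks picked as the widest, against a median of 354 bp in the set.

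At other genes of the 10 a wt peak lay closer. A 1422 bp peak covered the start of Myc, the bHLH proto-oncogene (chromosome 15, 61818693 to 61820114), 1189 bp from a wt replicate 3 peak. The Tst peak, at a sulfurtransferase gene, was 1397 bp wide and 1117 bp from one. At Olig1, a bHLH gene of the oligodendrocyte lineage (chromosome 16, 91269955 to 91271256), the peak was 1302 bp wide and a wt replicate 2 peak lay 3245 bp away. Stc1, a secreted glycoprotein gene, had a 1316 bp peak 4730 bp from a wt replicate 1 peak. Of the remaining 2, both intergenic, the one annotated to Nemp2 was 1295 bp wide and 96394 bp from a wt peak. The promoters of Kansl1, a histone acetylation complex subunit gene, and Hnrnpa0 completed the 10 widest at promoters, with 1282 and 1274 bp.

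The genes with the most E47KO-only peaks were Gas8 with 7, Zfp608 with 6, and Cdyl, Sipa1l2 and Tmem161b with 5 each. Those of Gas8 lay together between 126065794 and 126102236 on chromosome 8, each 215 to 859 bp from a wt peak. That gene had 0, 19 and 13 peaks in wt replicates 1, 2 and 3 and 26 in E47KO, so these sites stood inside a stretch already bound in wt replicates 2 and 3. The 5 at Tmem161b lay 412 to 70163 bp from a wt peak. At the level of genes, 807 of the 6649 genes with an E47KO peak within 10 kb had an E47KO-only one and no wt peak within 10 kb (12.1%). A further 585 genes had an E47KO-only peak beside a wt peak within 10 kb.

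Lost and E47KO-only sites were both more often at promoters than kept sites. The authors' annotation placed 26.3% of lost regions (23.4 to 29.5%), 22.1% of kept regions (21.4 to 22.9%) and 29.8% of E47KO-only peaks (28.2 to 31.4%) at promoters. Peaks found only in wt replicate 3 stood at 27.0% (25.8 to 28.2%). Median distance to the nearest start site was 15989 bp for lost, 21378 bp for kept, 13913 bp for E47KO-only and 15220 bp for wt replicate 3 only. Intergenic shares ran from 32.0% for E47KO-only to 35.7% for kept sites. Lost regions had 32.2% in introns against 35.3% of kept ones.

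**Figure D5:**
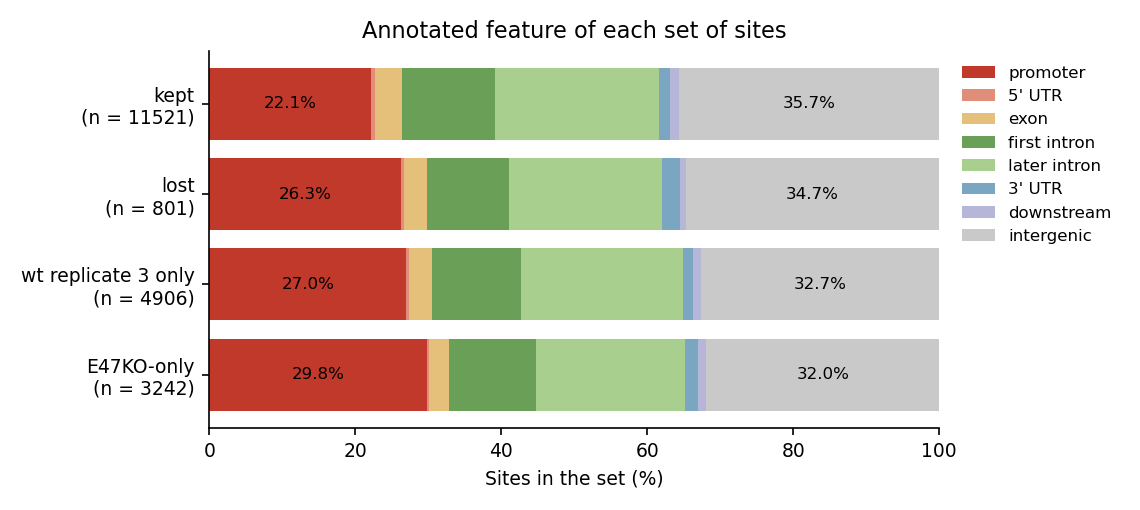
Bars split each set of sites by annotated feature as a percentage of the set, with the promoter and intergenic shares printed. Promoters were 22.1% of kept, 26.3% of lost, 27.0% of wt replicate 3 only and 29.8% of E47KO-only sites.

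The higher promoter share of lost regions did not hold in each group of regions with the same wt support. In wt replicates 1 and 3 alone, 21.9% of promoter regions (18.2 to 26.0%) and 29.3% of other regions (26.3 to 32.5%) were lost. In wt replicates 2 and 3 alone, the shares were 5.90% (4.84 to 7.16%) and 5.41% (4.83 to 6.06%), and in all 3 lists 2.11% (1.28 to 3.45%) and 1.48% (1.13 to 1.93%). In wt replicates 1 and 2 alone, 8 of 21 promoter regions (38.1%, 20.8 to 59.1%) and 13 of 26 others (32.1 to 67.9%) were lost. The order thus turned in the first and the last of these groups, and the intervals overlapped in all but the first, where they were 18.2 to 26.0% and 26.3 to 32.5%. Among regions of wt replicates 1 and 2, promoters were missing from E47KO at 3.58% (2.42 to 5.27%) and from wt replicate 3 at 3.13% (2.06 to 4.74%). Away from promoters the shares were 1.81% (1.42 to 2.30%) and 0.724% (0.494 to 1.06%), so the 2 lists stood apart there beyond counting error.

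Genes of neural development and signalling, with lymphoid, muscle, microglia, vascular, fibroblast and housekeeping genes beside them, were then examined through 20 lists with 413 distinct genes. Across all 20 lists, 42 of 786 consensus regions were lost (5.34%, 3.98 to 7.14%) and 171 of 1303 E47KO peaks were E47KO-only (13.1%, 11.4 to 15.1%), near the 6.50% and 14.6% of all sites. Within 10 kb of the start, 154 listed genes had a consensus region annotated to them and 3 of these had no E47KO peak annotated to them: Chrd, Erbb3 and Myh3. Over all genes the count was 191 of 3783 (5.05%), so the listed genes were not more often left without an E47KO peak. Here too, a peak within 10 kb of a gene means one annotated to it. Counts below are of consensus regions or E47KO peaks annotated to a list's genes at any distance, and named sites lie within 10 kb of the start.

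Among E proteins and Id factors, 3 of 45 regions were lost and 6 of 65 E47KO peaks were E47KO-only. A 569 bp region in an intron of Tcf12, which encodes the E protein HEB, was lost 9701 bp from the annotated start (chromosome 9, 71727287 to 71727855). The nearest E47KO peak lay 15567 bp from that region, and Tcf12 did have an E47KO peak within 10 kb of an annotated start. Id3, a gene for an Id antagonist, had an E47KO-only peak of 587 bp 7013 bp upstream, 228 bp from a wt peak. The E protein gene Tcf4 had one of 227 bp at a promoter, 533 bp from a wt peak. Of the bHLH genes that partner E proteins or belong to their family, 0 of 18 regions were lost (up to 17.6% by the interval). Of their 31 E47KO peaks, 3 were E47KO-only (9.68%, 3.35 to 24.9%), and such peaks lay within 10 kb at 3 genes. That at Olig1 is described above, and one at the Atoh8 promoter was 552 bp wide.

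Notch genes lost 2 of 67 regions (2.99%, 0.822 to 10.2%). Of their 95 E47KO peaks, 10 were E47KO-only (10.5%, 5.82 to 18.3%), with an interval that holds the 14.6% of all E47KO peaks. The lost region near a start was at the promoter of Mfng, a Fringe glycosyltransferase that modifies Notch, and was in wt replicates 1 and 3. E47KO-only peaks lay near the receptors Notch1 (371 bp, intronic) and Notch2 (1090 bp, over the start), the ligand Dll4 (318 bp, 8792 bp upstream), the ligand-activating ubiquitin ligase Mib1 and Dtx4. Notch2 had no wt peak within 10 kb of its start, and the nearest lay 9977 bp from the peak. Neural stem cell genes lost 2 of 76 regions (2.63%, 0.725 to 9.10%) and neuronal differentiation genes 2 of 102 (1.96%, 0.539 to 6.87%), and the intervals of both hold the 6.50% of all regions. E47KO-only peaks were 16 of 131 at the stem cell genes (12.2%, 7.66 to 18.9%) and 15 of 164 at the neuronal genes (9.15%, 5.62 to 14.5%), the latter with an upper bound just below the 14.6% of all E47KO peaks. Within 10 kb of a start, the stem cell genes lost none, and their E47KO-only peaks were at Prom1, Nr2e1 (2 peaks) and Sox21. The one lost site near a neuronal gene was 5777 bp from the start of Sox4, and its nearest E47KO peak was 482 bp away.

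In the BMP and TGF-β pathway, 5 of 45 regions were lost (11.1%, 4.84 to 23.5%). E47KO-only peaks were 8 of 74 there (10.8%, 5.58 to 19.9%), with an interval that holds the 14.6% of all E47KO peaks. At Chrd, whose product chordin holds BMP ligands off their receptors, a 772 bp region over the start (chromosome 16, 20732807 to 20733578) was in wt replicates 1 and 3, and the nearest E47KO peak lay 13110 bp away. At the start of Bmpr1a, a type I BMP receptor gene, a 997 bp region of the same 2 lists was lost (chromosome 14, 35315620 to 35316616). The nearest E47KO peak lay 45728 bp from the Bmpr1a site. Bmpr1a had an E47KO peak annotated within 10 kb of another of its starts, and Chrd had none. E47KO-only peaks were at the ligand genes Tgfb2 (288 bp, promoter) and Bmp6 (254 bp, intron), and Bmp6 had no wt peak within 10 kb. Wnt genes lost 4 of 63 regions and Sonic hedgehog genes 2 of 27. E47KO-only peaks were 15 of 101 at the Wnt genes (14.9%) and 4 of 37 at the hedgehog genes (10.8%), beside 14.6% of all E47KO peaks. The lost sites near a start were in an intron of Tcf7l2, a nuclear effector of Wnt signalling, 309 bp from an E47KO peak, and in the first intron of Gli2, a hedgehog effector, 1025 bp from one. E47KO-only peaks lay at the promoters of the Wnt receptors Fzd3 (979 bp) and Fzd9, the ligands Wnt5a and Wnt7a, and the hedgehog receptor Ptch1.

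FGF and EGF signalling genes, whose ligands were in the culture medium, had E47KO-only peaks at 22 of 111 E47KO peaks (19.8%, 13.5 to 28.2%), with an interval that holds the 14.6% of all E47KO peaks. Within 10 kb of the start, 10 of the 25 genes had one, the largest count of the 20 lists. All 413 listed genes, these 10 included, gave 50. Over all genes with an E47KO peak within 10 kb, 1392 of 6649 had one. The 25 were not limited to genes with an E47KO peak, so the shares are not like for like. In the FGF and EGF list, such peaks lay over or beside the starts of the receptor genes Egfr (938 bp), Fgfr1 (1115 bp) and Fgfr2 (435 bp) and of the adaptor gene Frs2 (494 bp). The others were near the feedback inhibitors Spry1, Spry2, Spry4, Spred2 and Dusp6 and the target Etv5. The nearest wt peak lay 25647 bp from the Egfr site, 16227 bp from the Fgfr1 site and 23303 bp from the Frs2 site, and 925 bp from the Fgfr2 site. Frs2 had no wt peak annotated to it within 10 kb, and Egfr and Fgfr1 had one at another annotated start. A single region near a start was lost, 703 bp upstream of Erbb3, an EGF receptor family member (chromosome 10, 128027260 to 128027735), held by wt replicates 2 and 3, with no E47KO peak within 35715 bp.

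Cell cycle exit genes lost 3 of 37 regions and cell cycle drivers 1 of 31. E47KO-only peaks were 10 of 62 at the exit genes (16.1%) and 7 of 53 at the drivers (13.2%), beside 14.6% of all E47KO peaks. A 1299 bp region of wt replicates 2 and 3 at the promoter of Cdkn1a, the CDK inhibitor p21, was lost, and an E47KO peak lay 341 bp from it. The lost region of E2f2, a gene for a factor of S-phase entry, was 4874 bp inside the gene, and E2f2 also had an E47KO-only peak 8749 bp upstream. Other E47KO-only peaks were at promoters of Gadd45a, Rbl2, Cdkn2c and the cyclin gene Ccne1, and Rbl2, of the retinoblastoma family, had no wt peak within 10 kb. Astrocyte genes lost 6 of 53 regions (11.3%, 5.29 to 22.6%), of which 2 lay within 10 kb of Nfix, at 639 and 1044 bp from an E47KO peak. E47KO-only peaks were 13 of 81 at the astrocyte genes (16.0%, 9.63 to 25.5%). Cd44 had an E47KO-only promoter peak and no wt peak within 10 kb. Axon guidance genes lost 7 of 97 regions, none of them within 10 kb of a start. Of their 185 E47KO peaks, 29 were E47KO-only (15.7%), among them peaks at the starts of Sema3c (673 bp) and Ephb1 (397 bp). Oligodendrocyte genes lost 1 of 21, and 4 of their 30 E47KO peaks were E47KO-only (13.3%). The start of Pdgfra had a 534 bp E47KO-only peak 900 bp from a wt peak.

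Genes of other lineages and general genes gave few sites. The lymphoid E2A targets lost 0 of 20 regions and skeletal muscle genes 1 of 10, near Myh3. Endothelial genes lost 0 of 7 regions, mural and fibroblast genes 0 of 8 and housekeeping genes 0 of 18. Microglia genes had no consensus region, and 1 of their 2 E47KO peaks, in an intron of Csf1r, was E47KO-only. Among housekeeping genes, 4 of 29 E47KO peaks were E47KO-only (13.8%), and Rpl13a had such a peak at its promoter.

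Promoters of the sites within 300 bp of a start were searched for E-boxes on both strands, in the RefSeq windows of genes with a single start in the table. The general form CANNTG reads alike on both strands, as does its subset CAGCTG. A further subset, CAGGTG, was searched also in its other-strand spelling, CACCTG. The palindromic subset was found in 20.4% of 103 lost promoters (13.7 to 29.2%), 19.5% of 1304 kept promoters (17.4 to 21.7%) and 10.7% of 475 E47KO-only promoters (8.26 to 13.8%). Over all 22862 such promoters it was in 16.1% (15.6 to 16.5%), and over 695 promoters of sites found only in wt replicate 3 in 16.7% (14.1 to 19.6%). The E47KO-only share was below each of these, with an interval that met none of those of the kept, wt replicate 3 only and all promoters. For peaks outside wt replicates 1 and 2, the shares were 13.4% (11.8 to 15.2%) in E47KO and 15.3% (13.7 to 17.1%) in wt replicate 3, with intervals that overlap. The non-palindromic subset was found in 11.7% (6.79 to 19.3%), 15.6% (13.7 to 17.6%) and 16.6% (13.6 to 20.2%) of lost, kept and E47KO-only promoters and in 20.0% of all. Any E-box was in 57.3%, 60.1% and 57.5% of them and in 72.4% of all. The bound promoters had a median GC content of 66.3%, 64.7% and 62.7%, against 52.3% of all, and the part of base composition in these shares was not tested.

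Lost regions lay at a median of 20451 bp from the nearest E47KO peak (quartiles 6144 and 56687). Of the 801, 269 lay within 10 kb (33.6%), 25 within 500 bp (3.12%) and 1 within 100 bp. Peaks found only in wt replicate 3 were much alike, at a median of 20768 bp from the nearest peak of the other 3 lists, with 187 of 4906 within 500 bp (3.81%). E47KO-only peaks lay at a median of 18069 bp from a wt peak, with 168 of 3242 within 500 bp. Closest to the 1 bp threshold on the outside was a region annotated to Dmtf1, 8 bp from an E47KO peak, then Pja2 at 144 bp and Tex30 at 154 bp. On the inside, the smallest overlaps were 25 bp at Tmx3, 38 bp at Eef1d and 54 bp at Tubb4b.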

How the data were processed

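E2A ChIP-seq libraries of 3 wild-type samples and 1 E47 knockout sample were used; the E12 knockout and input libraries were not analysed here. The submitters' processing notes name MACS2 2.1.0, BWA 0.7.13, Picard 1.119 and the mm9 genome, without settings. Libraries came from 2 ng of ChIP DNA with inserts of 360 to 600 bp, per the labels. The authors deposited 1 annotated peak list per library, not per pooled group. Each deposited list gives peak positions, the feature and gene, and the distance to the start site. The table of wt replicate 1 alone adds, as deposited, the pileup signal (coverage height), −log10 p and −log10 q, and a fold enrichment (a ratio). The false discovery label of that list differs from the others' labels, and a looser or stricter threshold changes list length and overlap. Its annotation measures distance to another peak edge, so regions took the annotation of wt replicate 3, else of wt replicate 2.

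Overlap needed 1 bp. Shares carry 95% Wilson intervals, which cover counting error only; read depth is unknown. The interval of a difference of shares combines both Wilson intervals as if the shares were independent. In the held-out comparison both shares come from the same regions, and that pairing was not used. Python 3.11.15 with pandas 2.3.3 and numpy 2.4.6 was used, and the overlap step was checked on simulated lists. No test between genotypes was made, since E47KO has 1 library. Genes near a site are those annotated within 10 kb. Named sites were Tcf3, the 15 strongest lost and 5 strongest kept regions of all 3 wt lists by −log10 q, the 10 widest E47KO-only peaks and the 10 widest at promoters, up to 5 genes with most sites of each kind or with each region lost, and up to 4 lost and 4 E47KO-only members per gene list, nearest first; other named sites were chosen after their values were seen. A few sites that the rule names are not reported here. The members and lists were chosen with earlier results of these data known. Alternatives were the overlap rule, wt support, left-out wt lists, score and width minima, list length, the promoter definition and the gene distance.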

Additional observations from a re-analysis of the deposited data

How the results depend on the processing

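No pairing of libraries was possible because E47KO is 1 library that carries no replicate number. Over 12 settings, 67 of 88 recomputed values stayed within 1.5 times a count or inside the main value's interval, 20 moved and 1 reversed. The 3 values for a promoter as 1 kb or less equal the main ones by construction, since the sites labelled promoter are those within 1 kb. With regions required in all 3 wt lists, 67 regions were lost in place of 801 and 12 genes were left without an E47KO peak within 10 kb in place of 191. Of the 12, 9 had a lost region of all 3 wt lists within 10 kb. Promoter shares were then 22.4% of lost and 16.8% of kept regions, and median distances to the start site 19759 and 24918 bp. Leaving out each wt replicate in turn gave 89 to 443 lost regions, 3397 to 10208 E47KO-only peaks and 24 to 102 such genes. Over the same settings the promoter share ran from 24.8% to 27.0% for lost and from 15.5% to 20.8% for kept regions. Median distances ran from 13905 to 20058 bp for lost and from 21776 to 25284 bp for kept regions. The difference in shares of peaks outside wt replicates 1 and 2, E47KO minus wt replicate 3, was -3.14 percentage points and reversed to 0.501 (-0.427 to 1.43) when wt replicate 3 was cut to the E47KO length. When peaks were extended by 250 bp, 11 of the 12 named E47KO-only sites still touched no wt peak. The 15 named lost sites could not change under that setting, since their nearest E47KO peak lay at least 1871 bp away. The number of reads per list is unknown, so absence of a peak is absence from a list at its threshold and not absence of E2A.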

Other observations

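The E47KO list held 3 peaks on chromosome Y and each wt list held 0. The Y peaks were a 429 bp peak at the Eif2s3y promoter (346615 to 347043) and peaks of 232 and 218 bp annotated to H2al2c. On chromosome X, E47KO had 417 peaks and wt replicate 3 had 502, a ratio of 0.831. Across the autosomes that ratio ran from 0.877 on chromosome 15 to 0.966 on chromosome 14. The X share of all peaks was 1.88% in E47KO and 1.88%, 1.97% and 2.07% in wt replicates 1, 2 and 3. Of the 216 consensus regions on X, 19 were lost (8.80%, 5.70 to 13.3%), and across all chromosomes the lost share ran from 5.13% on chromosome 17 to 9.32% on chromosome 5. The labels give no sex for the embryos, and what sets these values was not tested.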
